A study of Bos taurus with 10 samples.

Results

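A set of 7 enzyme genes of amino acid, methyl and urea cycle metabolism was followed across 5 tissues of dairy cattle: GAMT and AHCY of the methyl cycle, ASS1 and ASL of the urea cycle, GOT1 and GOT2, which encode the aspartate aminotransferases, and BCKDHA of branched chain amino acid breakdown. They were taken by their current symbol, and 7 of 7 were found among the 4366 named genes of the array. GOT1 and GOT2 were each represented by 2 array elements and the other 5 genes by 1 element, so 9 elements carried the whole set. All 7 had a value on each of the 10 arrays.

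The tissues were liver, mammary gland and the adipose depots of the mesentery, the omentum and the subcutis, all from cows (Bos taurus) at peak lactation, and every tissue shared that lactation state, with no dry or early animal beside it. Each tissue was 1 RNA sample, hybridised against a reference standard mixed from tissues on 2 arrays of spotted cDNA whose dyes, Cy3 and Cy5, were swapped between tissue and standard. The labels do not say whether the tissues came from the same animal or whether animals were pooled. A level below is the log2 of tissue over reference with the median of the array set to 0, and it shows how a gene stands between tissues but not how abundant it is beside another gene.

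Several pathways meet in these enzymes. GAMT transfers a methyl group from S-adenosylmethionine to guanidinoacetate, which makes creatine and S-adenosylhomocysteine, and AHCY splits S-adenosylhomocysteine into homocysteine and adenosine, which keeps methyl transfer running. ASS1 joins citrulline with aspartate to argininosuccinate, and ASL splits argininosuccinate into arginine and fumarate; in liver these steps serve urea formation, and in other tissues the synthesis of arginine. GOT1 in the cytosol and GOT2 in mitochondria exchange amino groups between glutamate and aspartate, which supplies the aspartate used by ASS1 and moves reducing equivalents in the malate-aspartate shuttle. BCKDHA is the E1 alpha subunit of the complex that commits leucine, isoleucine and valine to oxidation. In lactation the mammary gland draws amino acids from blood for milk protein, while liver turns surplus amino nitrogen into urea.

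Each array had 16416 spots, of which 15970 to 16245 held a value. The 2 arrays of a tissue carried the same RNA, so there is no error between animals and no p-value. The error given (±) is the distance of either dye orientation from the mean of both, and a difference is counted as passed where it reached 2-fold in the same direction in both orientations. No source states which dye is on top of the ratio, so the direction is only likely, and each gene name depends on a print order worked out from the data. Under this direction 8 of 8 measured markers of lactating mammary epithelium were higher in mammary gland than in adipose tissue, and 4 of 5 hepatocyte markers were higher in liver than in mammary gland, APOA1 being the exception at 0.53 ± 0.52; such genes were the basis for the direction and are no separate check of it. Casein genes and ALB were not among the named elements. The subcutaneous sample stood apart from the visceral depots: 12 of 15 myeloid markers were higher in it and 4 of 5 adipocyte markers lower, CEBPA being the exception at -0.26 ± 0.16. RBP4 stands in both the adipocyte and the hepatocyte list. In bulk tissue, fewer cells of a type and less RNA per cell cannot be told apart.

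The set fell into 2 groups. GAMT, AHCY, ASS1, GOT2 and GOT1 were highest in liver and passed against both mammary gland and adipose tissue, while ASL and BCKDHA passed in none of the 5 comparisons. Against mammary gland 5 of 7 genes were higher in liver and 0 lower, where 7.51% of the 4325 genes compared were higher and 2.75% lower. The median difference of the 7 genes was 2.24 log2 units, against -0.01 over all genes. Set against adipose tissue, taken as the mean of its 3 depots, liver was higher for the same 5 of 7 and lower for 0, with a background of 6.2% higher and 4.72% lower among 4326 genes. The median there was 2.12, against -0.06 over all genes. These 2 comparisons share the liver arrays. The 7 genes were chosen with earlier results of these data known, so their distance from the background is no test of the set. No gene of the set passed between mammary gland and adipose tissue (0 of 7, background 2.04% higher and 4.71% lower in mammary gland among 4313 genes) or between mesenteric and omental adipose tissue (0 of 7, background 0.507% and 0.161% among 4340 genes). Between subcutaneous and visceral adipose tissue 1 of 7 was higher, AHCY, against a background of 5.19% higher and 2.79% lower among 4332 genes.

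**Figure D1:**
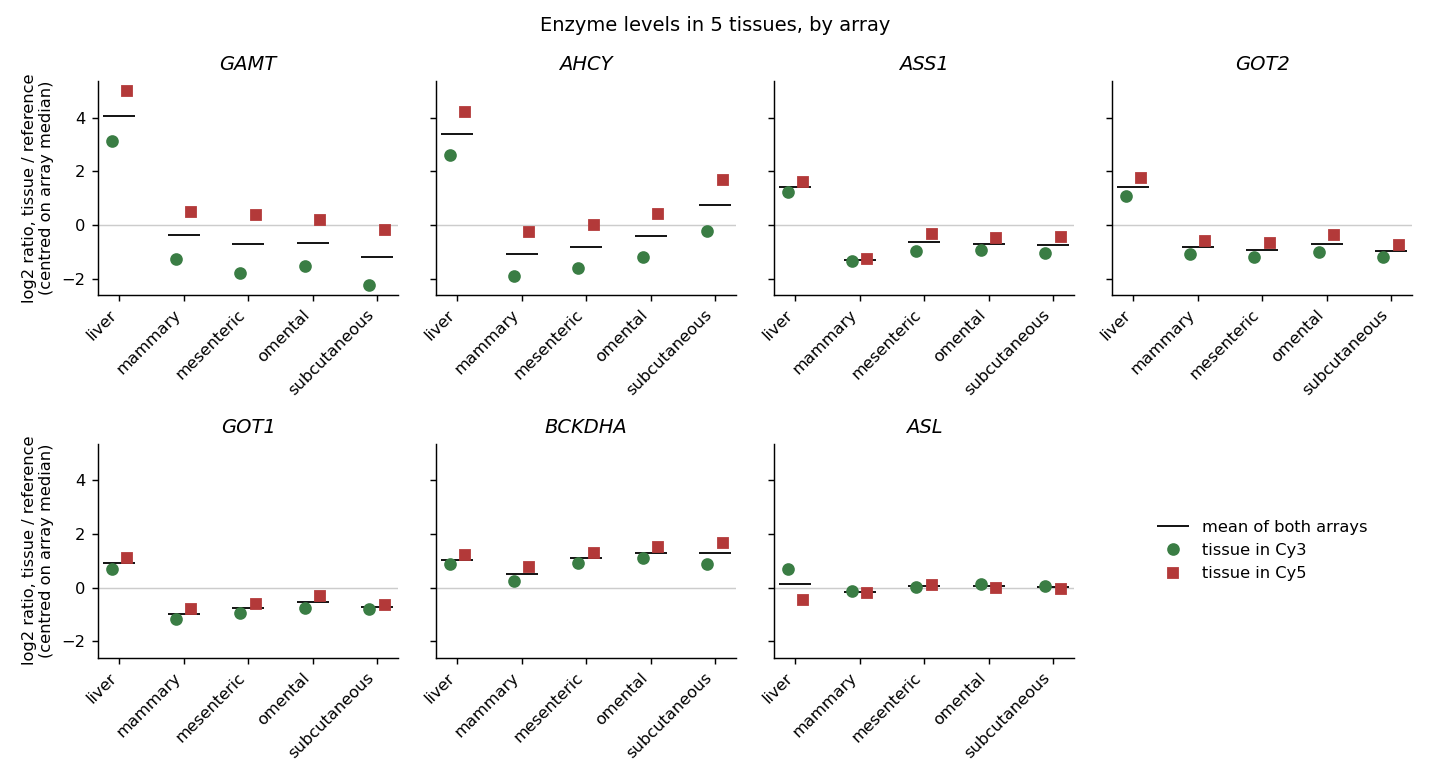
Levels of the 7 enzyme genes (log2 of tissue over reference, median of the array set to 0) in liver, mammary gland and the mesenteric, omental and subcutaneous adipose depots. Circles are arrays with the tissue in Cy3, squares arrays with the tissue in Cy5, and bars their mean. Both liver arrays lie above every array of the other tissues for GAMT, AHCY, ASS1, GOT2 and GOT1, but not for BCKDHA or ASL.

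GAMT, the last enzyme of creatine synthesis, showed the widest span of the set. In liver its level was 3.14 with the tissue in Cy3 and 5.0 with the tissue in Cy5. Mammary gland gave -1.28 and 0.49, mesenteric adipose -1.78 and 0.36, omental adipose -1.54 and 0.17, and subcutaneous adipose -2.24 and -0.18, in the same order of dyes. Liver lay far above the other 4 tissues in both orientations, and the means of those 4 ran from -1.21 in subcutaneous adipose to -0.39 in mammary gland. The difference between liver and mammary gland was 4.46 ± 0.05 log2 units (22.1-fold), rank 19 from the top of 4325 genes, and that between liver and adipose tissue 4.94 ± 0.06 (30.7-fold), rank 9 of 4326. Its range over the 5 tissue means, 5.28 log2 units, was wider than that of 99.6% of 4307 genes, whose median range was 0.73. Liver against the next tissue, mammary gland, was the only step in the order that reached 2-fold. Mammary gland exceeded omental adipose by 0.29 ± 0.03, omental and mesenteric adipose did not keep the same order in both orientations (0.03 ± 0.21), and mesenteric exceeded subcutaneous adipose by 0.50 ± 0.04.

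AHCY, which removes the product that inhibits methyl transfer, followed with a second feature among the fat depots. Liver stood at 2.62 in Cy3 and 4.19 in Cy5. Subcutaneous adipose gave -0.22 and 1.68, omental adipose -1.19 and 0.40, mesenteric adipose -1.60 and -0.02, and mammary gland -1.89 and -0.28. This order, from liver to mammary gland, was the same in both orientations at each of its 4 steps. Liver exceeded mammary gland by 4.49 ± 0.02 log2 units (22.5-fold, rank 18 of 4325 genes) and the adipose mean by 3.57 ± 0.06 (11.9-fold, rank 22 of 4326). With subcutaneous adipose left out of the adipose mean, the difference between liver and adipose tissue was 4.01.

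Among the depots, AHCY was higher in subcutaneous than in visceral adipose tissue by 1.33 ± 0.16 (2.52-fold), rank 178 from the top of 4332 genes. Mesenteric adipose alone, minus subcutaneous adipose, gave -1.54 ± 0.16. Against omental adipose alone the subcutaneous sample was higher by 1.13 ± 0.16, where the Cy3 orientation, at 0.97, missed the 2-fold limit. Mesenteric lay below omental adipose by an even step, with a difference of -0.41 ± 0.00. That difference did not pass but held rank 253 from the bottom of 4340 genes. Markers of other cells moved between subcutaneous and visceral adipose tissue. The 15 measured myeloid markers had a median level of 2.61 in subcutaneous adipose, with single genes at 0.79 to 6.63, against medians of 1.23 in mesenteric and 1.37 in omental adipose, where single genes ran from -2.30 to 3.01. The complement genes C1QA, C1QB and C1QC were the exceptions, at -0.68 ± 0.11, -0.85 ± 0.15 and -1.38 ± 0.34. The 5 adipocyte markers had a median difference of -1.95 between subcutaneous and visceral adipose tissue. The part of these cells in the AHCY difference was not tested. MAT2A, which makes S-adenosylmethionine outside the liver, stood at 0.52 ± 0.07 in that comparison and did not pass, and neither did the AHCY-like gene AHCYL1, at -0.20 ± 0.05.

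GAMT and AHCY shared a large dye offset. Their level was higher with the tissue in Cy5 in every tissue, by 1.71 to 2.14 log2 units for GAMT and by 1.57 to 1.90 for AHCY, where the median size of this gap over 4307 genes was 0.20. The mean gap of GAMT was larger than that of 99.3% of those genes and the mean gap of AHCY larger than that of 99.0%. The levels of both genes therefore carry errors of 0.78 to 1.07, whereas differences between tissues, taken within an orientation, carry errors of 0.21 or less. ASS1, BCKDHA, GOT1 and GOT2 were also higher in Cy5 in every tissue, with smaller mean gaps of 0.43, 0.48, 0.33 and 0.54.

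ASS1, the urea cycle enzyme that consumes aspartate, stood at 1.23 in Cy3 and 1.60 in Cy5 in liver. Mesenteric adipose gave -0.95 and -0.34, omental adipose -0.95 and -0.47, subcutaneous adipose -1.06 and -0.46, and mammary gland -1.35 and -1.27. Both liver arrays lay above 0 and all other arrays below it. The difference between liver and mammary gland was 2.73 ± 0.15 log2 units (6.62-fold, rank 73 of 4325) and that between liver and adipose tissue 2.12 ± 0.09 (4.35-fold, rank 92 of 4326). The 3 depots averaged -0.65 to -0.76, and their order changed with the dye orientation at both steps. Mammary gland was lowest in both orientations, at -0.61 ± 0.24 against the adipose mean, which did not pass.

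ASL, the next enzyme of the cycle, did not follow ASS1. Its liver arrays disagreed, with 0.69 in Cy3 and -0.45 in Cy5, and the duplicate spots of its Cy3 liver array differed as well, at 1.02 and 0.36. In the other tissues the arrays ran from -0.19 to 0.14, close to the median of the array. Liver against mammary gland was 0.27 ± 0.53 and liver against adipose tissue 0.08 ± 0.54, so that the sign of each depended on the dye. Its range over tissue means, 0.27 log2 units, was wider than that of only 6.01% of genes. Signal over background could not be judged, and whether this element measured ASL at a usable level was not tested. OAT, ornithine aminotransferase, was the other measured gene of the urea cycle and arginine list, which held 12 genes, 3 of them measured. It was lower in liver than in mammary gland at -1.36 ± 0.11, with -0.67 ± 0.24 in liver and 0.69 ± 0.35 in mammary gland, and stood at -0.69 ± 0.03 between liver and adipose tissue without passing.

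GOT2, the mitochondrial aspartate aminotransferase, averaged 1.41 ± 0.32 in liver, with its arrays at 1.08 in Cy3 and 1.73 in Cy5. Omental adipose averaged -0.70 ± 0.31, mammary gland -0.84 ± 0.25, mesenteric adipose -0.93 ± 0.26 and subcutaneous adipose -0.96 ± 0.22. All arrays outside liver lay below 0, between -1.18 and -0.39. Liver was higher than mammary gland by 2.24 ± 0.07 log2 units (4.74-fold, rank 111 of 4325) and than adipose tissue by 2.27 ± 0.07 (4.83-fold, rank 72 of 4326). Mammary gland and adipose tissue differed by 0.03 ± 0.01.

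GOT1, the cytosolic enzyme, gave 0.71 in Cy3 and 1.10 in Cy5 in liver, a mean of 0.91 ± 0.19. The other means were -0.54 ± 0.21 in omental, -0.71 ± 0.07 in subcutaneous and -0.77 ± 0.17 in mesenteric adipose and -0.97 ± 0.18 in mammary gland. Liver was higher than mammary gland by 1.88 ± 0.01 (3.67-fold) and than adipose tissue by 1.58 ± 0.04 (2.98-fold). The 2 elements of GOT1 differed widely in size. Element 1 of GOT1 differed by 0.71 ± 0.10 between liver and mammary gland and by 0.84 ± 0.00 between liver and adipose tissue, and passed in neither, while element 2 differed by 3.04 ± 0.07 (8.22-fold) and 2.32 ± 0.09 (4.99-fold). The GOT1 call thus rests on element 2, and in the liver comparisons the elements share the direction but not the size. Between mammary gland and adipose tissue they differed in sign, at 0.12 ± 0.10 for element 1 and -0.72 ± 0.16 for element 2. For GOT2 both elements passed in both comparisons, at 2.84 ± 0.06 and 1.65 ± 0.09 against mammary gland and at 2.78 ± 0.08 and 1.76 ± 0.05 against adipose tissue. In these liver differences the elements of both genes lay further apart than the dye orientations did, and the cause was not tested. This does not hold for all levels. In omental adipose the GOT2 elements averaged -0.88 and -0.52, while the orientations of element 2 were -1.07 and 0.02.

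**Figure D2:**
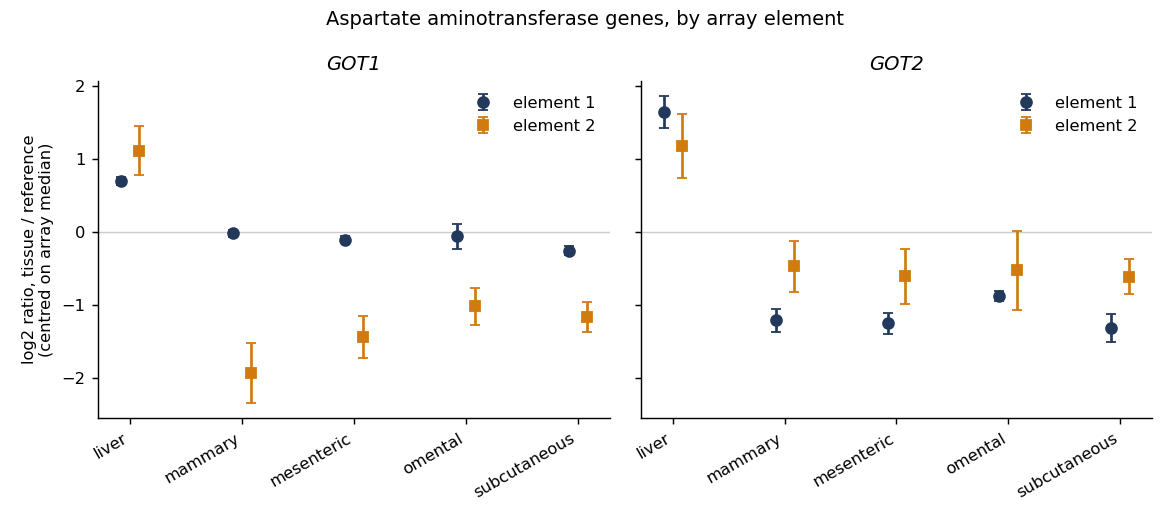
Levels of GOT1 and GOT2 by array element in the 5 tissues, as log2 of tissue over reference with the array median at 0, with the mean of both dye orientations and bars to the value of either orientation. Liver is highest for all 4 elements, and element 1 of GOT1 spans far less (0.71 between liver and mammary gland) than element 2 (3.04).

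MDH1 and MDH2, the cytosolic and mitochondrial malate dehydrogenases of the malate-aspartate shuttle, did not pass in liver. MDH1 stood at 0.10 ± 0.05 and MDH2 at 0.55 ± 0.00 between liver and mammary gland, and at -0.48 ± 0.10 and 0.33 ± 0.03 between liver and adipose tissue. Of the 4 measured genes in the list of 14 aminotransferase and shuttle genes, 2 were higher in liver in each comparison, and both were the aspartate aminotransferase genes. Over all genes, 7.51% were higher in liver than in mammary gland and 6.2% higher than in adipose tissue.

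BCKDHA, the subunit of branched chain keto acid oxidation, had the flattest profile after ASL. Omental adipose gave 1.11 in Cy3 and 1.5 in Cy5, subcutaneous adipose 0.88 and 1.68, mesenteric adipose 0.92 and 1.30, liver 0.89 and 1.20, and mammary gland 0.26 and 0.78. Mammary gland was the lowest tissue on arrays of either dye, and liver lay with the fat depots. The difference between liver and mammary gland was 0.53 ± 0.11 and that between liver and adipose tissue -0.18 ± 0.11, neither past 2-fold. Mammary gland stood at -0.71 ± 0.00 against the adipose mean, a 1.64-fold difference that was nearly equal in both orientations and placed BCKDHA at rank 576 from the bottom of 4313 genes. At a limit of 1.5-fold BCKDHA and AHCY (-0.92 ± 0.04) were the 2 of 7 genes lower in mammary gland than in adipose tissue, where 12.7% of all genes were. With subcutaneous adipose left out of the adipose mean, BCKDHA stood at -0.69 and AHCY at -0.48, which is under 1.5-fold. Omental and subcutaneous adipose, and subcutaneous and mesenteric adipose, exchanged places between orientations. Its range of 0.79 log2 units was near the median of all genes.

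Most other measured genes of this pathway stood above 0 between liver and mammary gland, by unlike amounts. PPM1K, the phosphatase that activates the BCKDHA complex, was higher in liver than in mammary gland by 2.30 ± 0.00 and than in adipose tissue by 2.54 ± 0.09. BCKDK, the kinase that inactivates it, stood at -0.36 ± 0.13 and -0.13 ± 0.11, and DLD, its E3 subunit, at 0.83 ± 0.00 and 0.27 ± 0.01, none past 2-fold. HSD17B10, a mitochondrial dehydrogenase of isoleucine breakdown, was higher in liver by 3.34 ± 0.05 and 3.09 ± 0.22, and ACAD8, of valine breakdown, by 1.35 ± 0.05 against mammary gland while 0.89 ± 0.15 against adipose tissue did not pass. HSD17B10 was also lower in subcutaneous than in visceral adipose tissue, at -1.47 ± 0.15, where MCCC1, of leucine breakdown, stood at -0.91 ± 0.05 without passing. Between liver and mammary gland IVD, MCCC1, HIBCH and MCEE stood close together, at 0.90 ± 0.19, 0.93 ± 0.05, 0.94 ± 0.09 and 0.81 ± 0.10. BCAT1 stood at 0.43 ± 0.33 there, and none of these passed. Of the 11 measured genes in this list of 25, 3 were higher in liver than in mammary gland (median 0.90) and 2 higher in liver than in adipose tissue (median 0.63), with 0 lower in either. The background was 7.51% higher and 2.75% lower in the first comparison, and 6.2% and 4.72% in the second. Medians over all genes were -0.01 and -0.06.

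**Figure D3:**
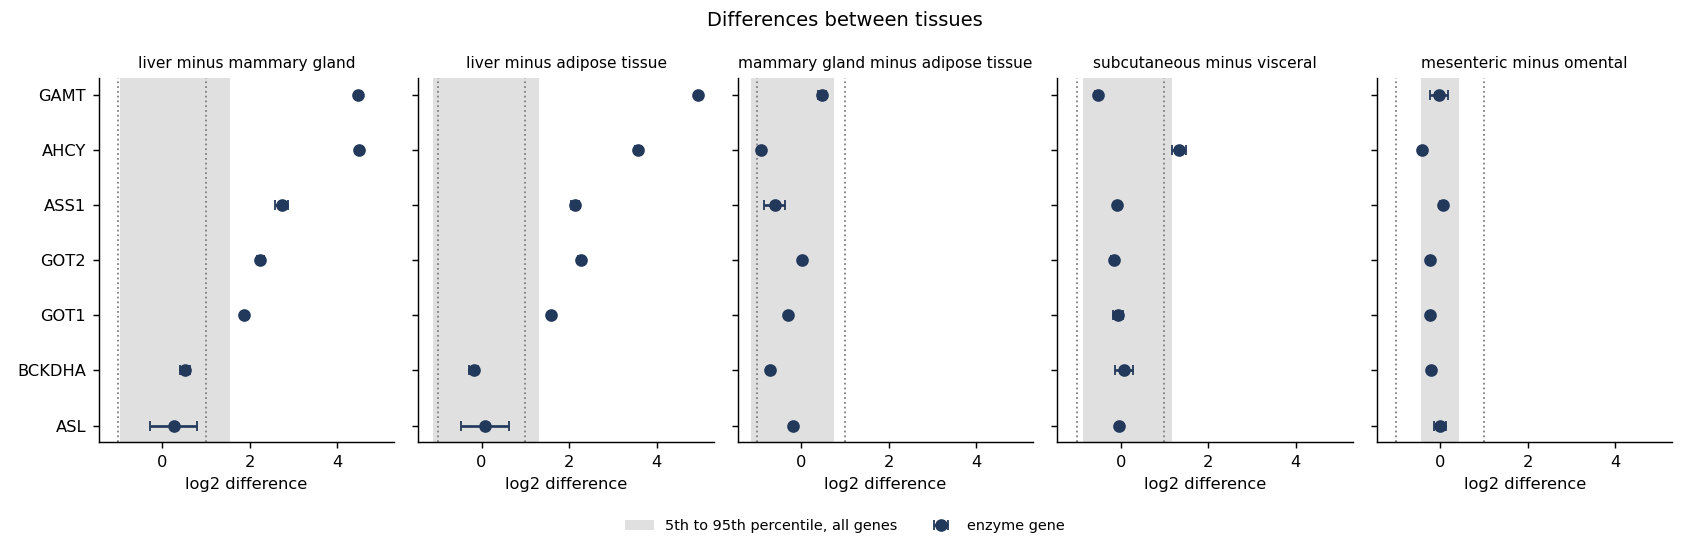
Log2 differences of the 7 enzyme genes in 5 comparisons, with points for the mean of both dye orientations and bars to either orientation. Dotted lines mark 2-fold and grey bands the 5th to 95th percentile of all genes compared, which run from -0.95 to 1.55 for liver minus mammary gland and from -0.44 to 0.42 for mesenteric minus omental adipose. GAMT, AHCY, ASS1, GOT2 and GOT1 lie to the right of the band in both liver comparisons, and AHCY does so for subcutaneous minus visceral adipose.

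In the methyl cycle list, 8 of 29 genes were measured. MTHFD1, a folate enzyme that feeds methyl synthesis, was higher in liver than in mammary gland by 3.25 ± 0.74, with mammary arrays at -0.59 and -1.68, and higher than in adipose tissue by 2.85 ± 0.11. Its mitochondrial relative MTHFD2 stood at -0.84 ± 0.06 and -0.89 ± 0.02 and did not pass. AHCYL1, an AHCY-like protein, reached 0.998 ± 0.307 against mammary gland and 0.96 ± 0.03 against adipose tissue without passing, since its Cy5 value was 0.69 in the first. AHCYL2, a further relative, was lower in liver than in mammary gland at -1.23 ± 0.13. MAT2A stood at 0.39 ± 0.09 and 0.15 ± 0.02 and SHMT2, mitochondrial serine hydroxymethyltransferase, at 0.78 ± 0.03 and 0.51 ± 0.12. In this list 2 genes, AHCY among them, were thus higher and 1 lower in liver against mammary gland, beside background shares of 7.51% and 2.75%. Against adipose tissue 2 were higher, again with AHCY, and 0 lower, beside 6.2% and 4.72%. The genes MAT1A, GNMT, BHMT and CBS were not among the named elements, nor was GATM, the enzyme before GAMT. CKMT1A, a mitochondrial creatine kinase and the other measured gene of the creatine list of 9, differed by -0.01 ± 0.07 between liver and mammary gland and by 0.11 ± 0.05 between liver and adipose tissue.

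Amino acid genes outside these routes passed in few comparisons. GLUL, glutamine synthetase, was lower in mammary gland than in adipose tissue at -1.43 ± 0.05 (4 elements) and higher in liver than in mammary gland by 1.32 ± 0.10, while liver and adipose tissue differed by -0.11 ± 0.05. GSTZ1, of tyrosine breakdown, was higher in liver by 1.82 ± 0.03 against mammary gland and by 2.27 ± 0.03 against adipose tissue. QDPR, which regenerates the cofactor of phenylalanine hydroxylase, was lower in mammary gland than in adipose tissue at -1.28 ± 0.06. Over all 7 lists without the 7 enzyme genes, 6 of 29 measured genes were higher in liver than in mammary gland and 2 lower (median 0.55), beside the background shares of 7.51% and 2.75%. Against adipose tissue 4 of 30 were higher in liver and 0 lower (median 0.22), beside 6.2% and 4.72%. Between mammary gland and adipose tissue 0 of 29 were higher and 2 lower in mammary gland, beside 2.04% and 4.71%. Between subcutaneous and visceral adipose tissue 0 of 30 were higher and 1 lower in subcutaneous adipose, beside 5.19% and 2.79%.

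**Figure D4:**
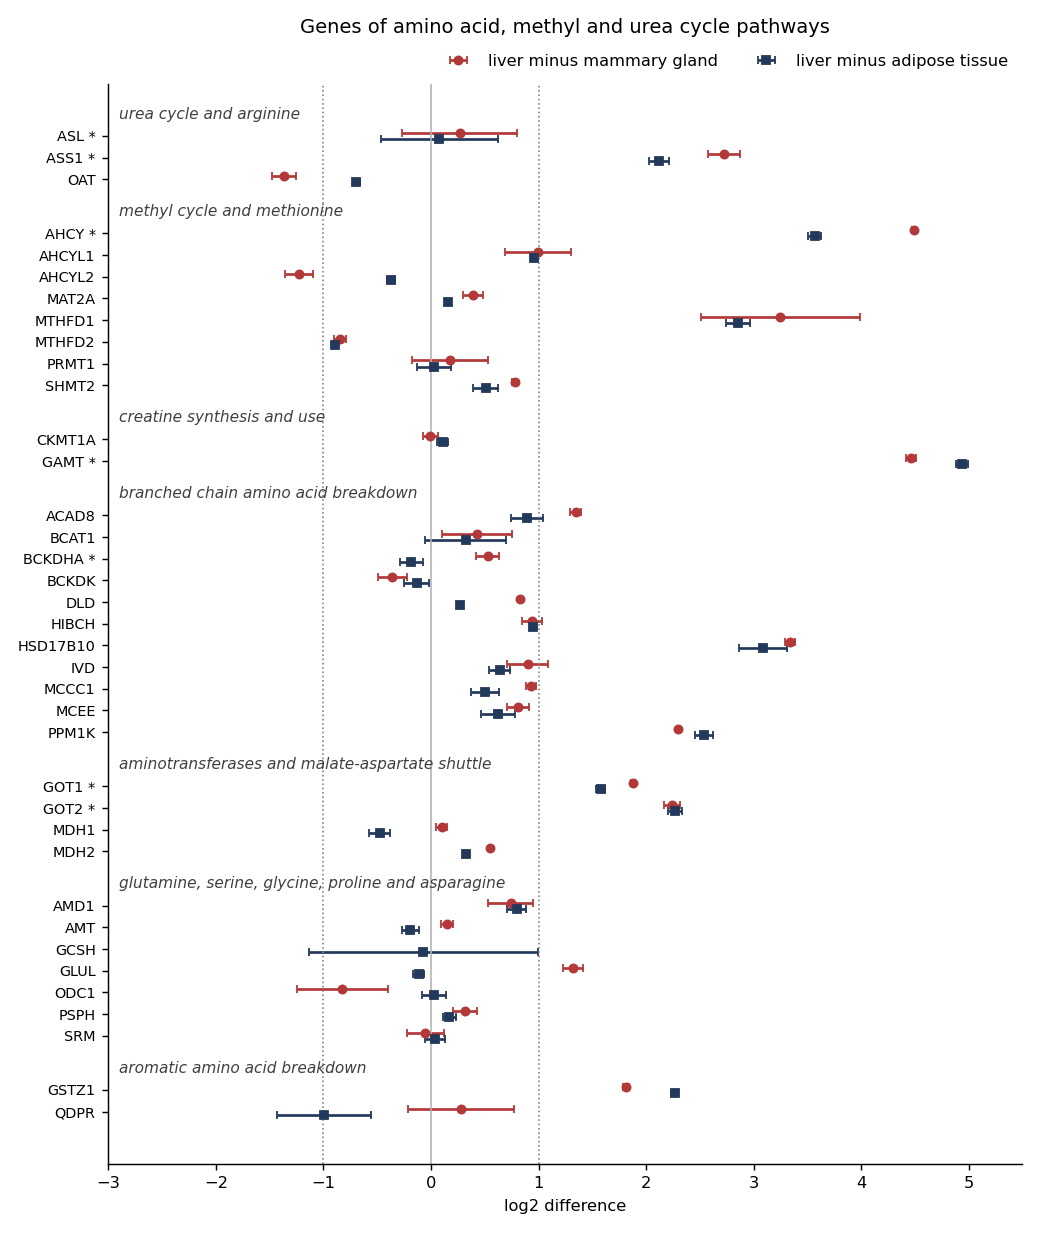
Log2 differences of measured genes in 7 lists of amino acid, methyl and urea cycle genes, with circles for liver minus mammary gland, squares for liver minus adipose tissue, bars to either dye orientation and dotted lines at 2-fold. Asterisks mark the 7 enzyme genes. MTHFD1, PPM1K, HSD17B10 and GSTZ1 lie past 2-fold in both comparisons, and most other genes lie between the dotted lines.

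Likeness of profiles was measured as the root mean square difference over the 10 arrays, after the mean of a gene over the 5 tissues was removed within each dye orientation. Within the set, GOT1 and GOT2 lay 0.28 log2 units apart, ASS1 and GOT2 0.28 and ASS1 and GOT1 0.32. They differed in size, with liver minus mammary gland at 2.73 ± 0.15 for ASS1, 2.24 ± 0.07 for GOT2 and 1.88 ± 0.01 for GOT1, the last a mean of elements far apart. GAMT and GOT2 correlated at 0.99 over the 5 tissue means but lay 1.05 apart, and the liver difference of GAMT was the larger. AHCY lay 0.83 from ASS1 and 0.97 from GAMT. Each of these values rests on 5 tissues, of which liver alone sets most of the variation.

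Over all 4307 genes with full values, the genes nearest to GAMT were LOC338050 at 0.33, the canalicular transporter gene ABCC2 at 0.37 and the bile acid uptake gene SLC10A1 at 0.43. ALAS1, which starts haem synthesis, was nearest to AHCY at 0.24, followed at 0.53 each by CTSV and C1S, and no other gene lay as near to it as ALAS1. ASS1 was closest to COLGALT2 (0.16), ESD (0.20) and PRDX3 (0.20), GOT1 to CPT2, of fatty acid oxidation, SUCLG2 and TRAPPC13 (0.12, 0.13 and 0.14), and GOT2 to LONP2, FAAH and MRS2 (0.07, 0.08 and 0.12). For GOT1 and GOT2 these are distances to the mean of 2 unlike elements and not to either element. Liver minus mammary gland was 0.71 and 3.04 for the GOT1 elements and 2.84 and 1.65 for those of GOT2. For BCKDHA the nearest were WNK1, PPP1R13L and CFDP2 at 0.10 to 0.11, and for ASL they were MRTFA, ZNF512 and GPR107 at 0.06 to 0.14. BCKDHA and ASL varied little themselves, with a root mean square of 0.30 and 0.24 about their own mean, so small distances to other genes are easily met.

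Duplicate spots of an element agreed closely for the set. The median distance between them was 0.04 to 0.13 log2 units by gene, against 0.11 over all elements, and the largest was 0.66 for ASL and 0.60 for GOT1. These distances show error within an array and not between samples of a tissue.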

How the data were processed

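The members and gene lists were chosen with earlier results of these data known. Per the labels' protocols, aminoallyl cDNA from 20 ug of RNA was dye-coupled and kept on the arrays at 42 C for 2 days; a ScanArray 4000 took the images and GenePix 4.0 quantified them. The deposited values are treated here as log2 dye ratios because 94 share the maximum 16.61, which is log2 of 100000; neither the log base nor any correction or scaling by the authors is stated. Ceiling values were set missing beside 2402 missing ones. Array medians ran from -1.32 to 0.71.

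Arrays of a tissue correlated at -0.78 to -0.66 and arrays of the same dye at 0.23 to 0.79. Cy3 arrays had their sign turned, and each array was centred on its median. The basis for taking the ratio as Cy5 over Cy3 is the design text and the milk and plasma protein genes; the opposite direction turns every sign. One omental array, grouped as tissue in Cy5, has labels that contradict each other on the dye of its reference.

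Neighbouring spots were duplicates (correlation 0.83 to 0.92, against 0.03 to 0.10 between elements). Names were joined through 384-well plates by the best of 3072 annotation layouts with 768 table layouts: clone pairs of the same gene correlated at a mean of 0.46 over 466 pairs used in the search and 0.43 over 458 held-out pairs (0.86 over 85 held-out pairs that vary), against 0.09 for the next layout and -0.02 at face value. Plates 1 to 20 were named, 5472 elements, of which 5467 matched RefSeq (ARS-UCD2.0) by Entrez identifier. Of the annotation's identifiers 10884 had 1 symbol, 186 several and 5826 none. A clone can still carry a wrong name. No coordinates or sequences are printed.

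Elements of a gene were averaged. Described genes were the 7 enzymes, their measured direct partners, further genes of the lists and the 3 nearest profiles. Some of the further genes passed in no comparison. Python 3.11.15, numpy 2.4.6 and pandas 2.3.3 were used, and the calls and the layout search were run on simulated data. These data had no dye offset of single genes, and clones of a gene shared a profile by design. Only part of the annotation layouts was searched there, so the runs check the code and not the names or calls given here.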

Additional observations from a re-analysis of the deposited data

How the results depend on the processing

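No paired analysis was possible because each tissue is 1 RNA sample and its arrays differ only in dye. GAMT, AHCY, ASS1, GOT1 and GOT2 passed in both liver comparisons with no centring and with quantile normalisation. Liver against adipose tissue also kept these genes without subcutaneous adipose, and with omental adipose from its other array only. AHCY passed in subcutaneous against visceral adipose tissue with quantile normalisation, at 1.30. No centring raised this difference to 1.96, but the median over all genes rose to 0.64 with it, so keeping the call there says little. With the other omental array alone the AHCY difference was 1.44 and still passed. That setting leaves the Cy3 orientation unaltered and rests the visceral side of Cy5 on mesenteric adipose alone. No spot of the 7 genes held a ceiling value, so keeping such values could not test their calls. The arrays of 1 dye alone and a 1.5-fold limit are laxer by construction and could not remove a call, and the median over 1 or 2 elements equals the mean, so these say nothing about stability. Element 1 of GOT1 did not pass while both elements of GOT2 did, and for the other 5 genes, with 1 element each, dependence on the clone could not be checked. Between mammary gland and adipose tissue 2 of the 7 passed at 1.5-fold, AHCY and BCKDHA, both lower in mammary gland (background 12.7%), but AHCY, at -0.92, moved to -0.48 without subcutaneous adipose, under that limit. With 1 dye alone no further gene of the 7 passed.

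Counts over all genes moved. The arrays of 1 dye alone gave 684 to 772 genes for liver against mammary gland (444 with both), 629 to 649 for liver against adipose tissue (472), 412 to 558 for mammary gland against adipose tissue (291), 428 to 494 for subcutaneous against visceral (346) and 102 to 108 for mesenteric against omental adipose tissue (29), since a gene must then pass in 1 orientation only. Without the doubtful omental array the last count was 108. The 1.5-fold limit gave 851, 947, 764, 757 and 106. With no centring, the median difference over all genes became -0.22, -0.32, -0.10, 0.64 and -0.33, and the splits of higher to lower became 222 to 174 (325 to 119 with centring), 186 to 322 (268 to 204), 93 to 165 (88 to 203), 621 to 30 (225 to 121, 651 in all) and 7 to 25 (22 to 7). Quantile normalisation gave 19 to 12 in the last. With no centring AHCY was 1.96 higher in subcutaneous than in visceral adipose tissue, and GAMT stood at 0.12 there (-0.51 with centring), not past 2-fold in either. The number of arrays limits the precision, and signal over background is unknown.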
